A study of Mus musculus with 40 samples.

Results

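Rrm2, Pcna, Cdt1 and Fen1 are 4 genes of DNA replication that were picked for their higher transcript ratio in mouse embryos cultured with an activated form of cyclophosphamide. Every probe annotated with exactly 1 of these symbols was taken, which gave 6 of the 7680 probes of array design 1 and 0 of the 7680 probes of array design 2. The 4 genes are 4 of 3838 genes named on design 1 and 0 of 4075 on design 2. Rrm2 had 3 probes (numbers 1769, 2161 and 3397), Pcna 1 (5157), Cdt1 1 (5109) and Fen1 1 (5090). Because the genes were chosen from the ratio of treated over control embryos, that ratio is described for them below and no p-value is given for it.

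Total RNA of treated and of control mouse embryos was hybridised together on 40 two-channel cDNA arrays, 20 of each design, and all 40 form 1 group. Treated embryos were cultured at 37 °C for 5 h in the continuous presence of 40 µM 4-hydroperoxycyclophosphamide, a form of cyclophosphamide that needs no activation by the liver and alkylates DNA. Control embryos were cultured at 37 °C without the drug. Each design had 5 replicates, each with 2 slides of opposite dye orientation and 2 readouts of every slide, called plain and B. The sources used here do not give the strain, genotype or age of the embryos or say whether embryos were pooled. The replicates are separate by their labels, and the spread that p-values rest on may be technical.

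DNA replication needs deoxynucleotides, licensed origins, a moving polymerase and the joining of the short fragments of the lagging strand. Rrm2 encodes the small, radical-bearing subunit of ribonucleotide reductase, which turns ribonucleotides into deoxynucleotides and is made mainly in S phase. Pcna encodes the ring-shaped sliding clamp that holds polymerases and many repair proteins on DNA. Cdt1 loads the MCM helicase onto origins in G1 and is then degraded or bound by geminin, which keeps origins from firing again. Fen1 encodes the endonuclease that cuts the 5′ flaps of lagging-strand fragments and also acts in base excision repair. The 4 genes are known targets of E2F factors, which turn on genes for DNA synthesis as cells enter S phase. Embryos grow by rapid cell division, so their cells call on these genes often.

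Values are log2 ratios of treated over control, each array centred on its median, so a ratio is relative to the median probe. The 4 arrays of a replicate were combined into 1 value, with the ratios of the opposite orientation turned. Which channel was the numerator is not stated. Channel 1 over channel 2 is the likely direction, read from the channel order in the labels and from Ccng1, a p53 target gene. Ccng1 was above 0 on all arrays with a value, with means of 2.41 ± 0.31 and 2.90 ± 0.46 on design 1 and 1.39 ± 0.40 on design 2 (SD, n = 5). With the other direction every sign below would turn. On design 2 the direction is less settled, since single arrays had Ccng1 as low as 0.166 there, against 1.55 or more on design 1. Arrays of the same orientation correlated from -0.54 to 0.86 over all probes on design 2 and from -0.088 to 0.8 on design 1. These correlations do not show which channel was the numerator. The log base is not stated either, and folds assume base 2. The values are ratios only, so they give no transcript level, and the label of whole embryos could not be checked against marker levels. In RNA of whole embryos, a change in the share of cells that express a gene and a change in RNA per cell cannot be told apart.

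One readout stood apart from the others. In replicate 4 of design 1, the B readout of the slide with treated embryos in channel 2 lacked 786 of 7680 values (10.2%), and its SD over probes was 1.13 against 0.297 to 0.765 for the other arrays of the design. It is called the failing readout below. It had no value for 4 of the 6 probes, and it held 4.08 for Rrm2 probe 1769 and 1.42 for Fen1. Values of these 2 probes are given with and without it.

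The promoters of the 4 genes are shown as background. The genes were picked for a higher ratio, so their being higher together does not speak to shared control. For Rrm2, Pcna and Cdt1 the 250 bases before the annotated start are printed, 5′ to 3′ on the strand of the gene, from RefSeq on GRCm38.p6. Capitals mark GC boxes (GGGCGG) and CCAAT motifs, on either strand. The windows are chr12:24708004-24708253 on the plus strand for Rrm2, chr2:132253181-132253430 on the minus strand for Pcna and chr8:122567765-122568014 on the plus strand for Cdt1.
Rrm2: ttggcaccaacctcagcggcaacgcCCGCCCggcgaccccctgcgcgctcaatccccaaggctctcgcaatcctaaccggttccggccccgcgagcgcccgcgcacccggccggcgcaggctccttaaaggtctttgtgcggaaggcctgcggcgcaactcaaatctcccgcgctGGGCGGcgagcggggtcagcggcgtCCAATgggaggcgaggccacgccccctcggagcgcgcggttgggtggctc
Pcna: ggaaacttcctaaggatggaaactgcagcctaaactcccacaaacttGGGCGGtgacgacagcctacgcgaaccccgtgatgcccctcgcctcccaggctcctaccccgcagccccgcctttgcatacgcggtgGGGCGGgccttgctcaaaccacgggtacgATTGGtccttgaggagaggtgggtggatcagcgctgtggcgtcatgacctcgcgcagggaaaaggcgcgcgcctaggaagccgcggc
Cdt1: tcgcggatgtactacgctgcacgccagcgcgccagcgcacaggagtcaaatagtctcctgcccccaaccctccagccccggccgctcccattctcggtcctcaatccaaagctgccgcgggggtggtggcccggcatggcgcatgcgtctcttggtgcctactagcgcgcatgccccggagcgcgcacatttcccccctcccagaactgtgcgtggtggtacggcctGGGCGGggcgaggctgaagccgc

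These 3 windows were rich in G and C, at 72.4% for Rrm2, 64.0% for Pcna and 68.4% for Cdt1, against a median of 52.4% over 32851 mouse promoter windows of the same length. They held 34, 22 and 25 CpG pairs, against a median of 6. Rrm2 had 2 GC boxes, which began 225 and 75 bases before the start, and a CCAAT motif 50 bases before it. Pcna had 2 GC boxes, at 203 and 116 bases, and the CCAAT motif on the opposite strand (ATTGG) at 87 bases. Cdt1 had 1 GC box, at 23 bases. GC boxes were found in 32.7% of all windows and CCAAT in 33.8%. Fen1 had 2 annotated starts on the minus strand, with windows at chr19:10203922-10204171 (53.6% G and C, 13 CpG pairs) and chr19:10204394-10204643 (40.8%, 5 CpG pairs). Neither Fen1 window had a GC box or a CCAAT motif. The Fen1 window farther upstream held 1 match to the 10-base p53 half-site, GGGCTTGCTT, which began 32 bases before the start. Such a half-site match was found in 7.13% of all windows. Spellings of the E2F element, TTTCGCGC, TTTGGCGC, TTTCCCGC and TTTGCCGC, were searched on both strands and did not occur in any of the 5 windows, against 1.86% of all windows with a match. The matches found do not overlap one another. A match is a run of letters, and its absence says nothing about binding.

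Rrm2 supplies deoxynucleotides, and its 3 probes gave different sizes. Probe 3397 had log2 ratios of 0.68, 0.68, 0.44, 0.83 and 1.12 in replicates 1 to 5. All 5 replicates lay above the array median, with replicate 3 lowest and replicate 5 highest. The mean was 0.75 ± 0.25 (SD, n = 5), a 1.68-fold higher ratio and rank 16 of 7680 probes. Probe 2161 had 0.64, 0.65, 0.48, 0.80 and 1.08, with the same lowest and highest replicates. Its mean was 0.73 ± 0.22, or 1.66-fold, at rank 18. These 2 probes differed by -0.02 ± 0.04 on the log2 scale (2161 minus 3397, n = 5), and their root mean square difference over 19 arrays was 0.09.

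Rrm2 probe 1769 had 0.20, 0.17, 0.32, 1.31 and 0.50 in replicates 1 to 5. Replicate 4 was far above the other replicates. Its mean was 0.50 ± 0.47, or 1.41-fold, at rank 82. Without the failing readout replicate 4 was 0.40, the mean was 0.32 ± 0.14 and the fold 1.25, at rank 318. Probe 1769 then lay below probe 2161 in 5 of 5 replicates, by 0.41 on the log2 scale. Over 19 shared arrays these 2 probes of the same gene had a root mean square difference of 0.60, against 0.09 for probes 2161 and 3397. Probe sequences were not used here, and what distinguishes probe 1769 was not tested.

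Pcna, the sliding clamp, had log2 ratios of 0.56, 0.57, 0.32, 0.81 and 1.08 in replicates 1 to 5. All replicates lay above 0, and replicate 3 was again the lowest and replicate 5 the highest. The mean was 0.67 ± 0.29 (SD, n = 5), or 1.59-fold, at rank 27 of 7680. Pcna lay close to the larger Rrm2 values, in the ratios from which these genes were chosen. It was lower than Rrm2 probe 3397 in 5 of 5 replicates, by 0.08 ± 0.05, and lower than probe 2161 in 3 of 5, by 0.06 ± 0.07. The root mean square difference over 19 arrays was 0.14 to probe 3397 and 0.18 to probe 2161.

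Cdt1, the licensing factor, had log2 ratios of 0.40, 0.20, 0.32, 0.56 and 0.40 in replicates 1 to 5. All were above 0, and replicate 2 was the lowest. The mean was 0.37 ± 0.13 (SD, n = 5), or 1.30-fold, at rank 274. Pcna was higher than Cdt1 in 5 of 5 replicates, by 0.30 ± 0.26, and the 2 groups of replicate values overlapped.

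Fen1, the flap endonuclease, had log2 ratios of 0.35, 0.13, 0.20, 0.64 and 0.28 in replicates 1 to 5. All were above 0, with replicate 4 highest. The mean was 0.32 ± 0.20 (SD, n = 5), or 1.25-fold, at rank 473. Without the failing readout replicate 4 was 0.38, and the mean was 0.27 ± 0.10, or 1.20-fold. Cdt1 exceeded Fen1 by 0.05 ± 0.08 and was higher in 4 of 5 replicates, which is within the spread. The failing readout has a value for Fen1 and none for Cdt1, and without it Cdt1 was higher by 0.11 ± 0.05, in 5 of 5 replicates. This difference is described and was not tested. Rrm2 probe 1769 then lay between them and differed from neither beyond the spread (-0.06 ± 0.12 from Cdt1 and 0.05 ± 0.13 from Fen1). By the means without the failing readout, the order of the 6 probes was Rrm2 3397, Rrm2 2161, Pcna, Cdt1, Rrm2 1769 and Fen1, with a gap between Pcna at 0.67 and Cdt1 at 0.37. This order depended on the dye orientation. With treated embryos in channel 1 only, Pcna was the lowest of the 6 at 0.30, below Cdt1 at 0.37 and Fen1 at 0.40. Fen1 thus lay above Cdt1 in that orientation. With treated embryos in channel 2 only, Pcna had 1.04 and Cdt1 0.38.

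**Figure D1:**
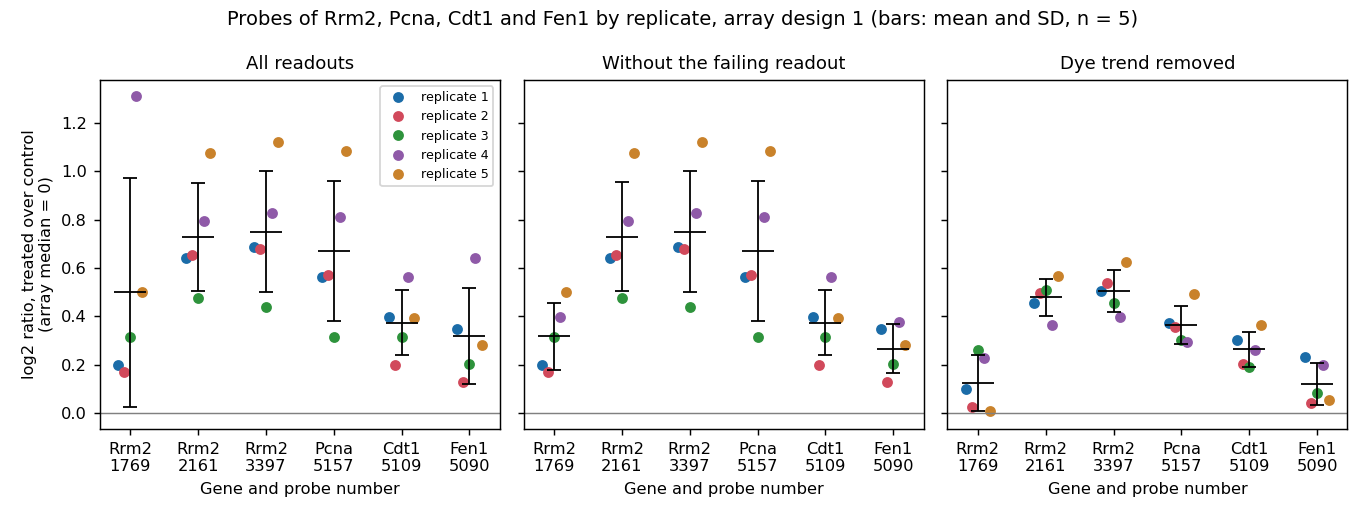
Log2 ratio of treated over control embryos (y axis, array median at 0) for the 6 probes of Rrm2, Pcna, Cdt1 and Fen1 (x axis, gene and probe number); points are the 5 replicates, horizontal lines the mean and bars the SD. Left, all readouts; middle, without the failing readout, where replicate 4 of Rrm2 probe 1769 moves from 1.31 to 0.40; right, after removal of the dye trend described in the text, where the mean of Rrm2 probe 3397 is 0.50 and that of Fen1 is 0.12.

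Over all 7680 probes of design 1, limma called 49 higher (0.638%) and 1 lower (0.013%) at an adjusted p of 0.05. Rrm2 probes 2161 and 3397, Pcna and Cdt1 were among the 49, and Rrm2 probe 1769 and Fen1 were not. The 4 called probes are the 4 without a value in the failing readout. Of all 50 called probes, 44 had no value in that readout, beside 786 of all 7680 probes. Being called or not with all readouts therefore cannot be read as a difference between the genes. Without the failing readout 781 probes (10.2%) were called higher and 443 (5.77%) lower, and all 6 probes were among the higher. Since the genes were chosen from this contrast, these counts only describe them. Leaving out replicates 1 to 5 in turn gave 8, 12, 7, 82 and 9 called probes on the design in place of 50.

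Single arrays show how much of each value came from which dye orientation. Rrm2 probe 2161 was above 0 on 16 of 19 arrays, Rrm2 probe 3397 on 16 of 19, Pcna on 15 of 19, Cdt1 on 18 of 19, Rrm2 probe 1769 on 17 of 20 and Fen1 on 15 of 20. For Pcna the 10 arrays with treated embryos in channel 1 ranged from -0.59 to 1.53 with a median of 0.18, and the 9 with treated embryos in channel 2 from 0.21 to 1.44 with a median of 1.03. Pcna was thus above 0 on 6 of 10 arrays of the one orientation and on 9 of 9 of the other. Rrm2 probes 2161 and 3397 had medians of 0.35 and 0.35 with treated embryos in channel 1, and of 1.17 and 1.11 in channel 2. The orientations lay closer for Cdt1, with medians of 0.35 and 0.41, and for Fen1, with 0.41 and 0.26 without the failing readout.

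The orientation with the higher ratio depended on the replicate. In replicate 3 all 6 probes were higher with treated embryos in channel 2. Pcna was -0.59 and -0.47 on the 2 readouts with treated embryos in channel 1, and 1.30 and 1.03 on those with treated embryos in channel 2. In replicate 1 Pcna showed the same split, with -0.30 and -0.14 against 1.29 and 1.41. In replicates 2 and 5 all 6 probes were higher with treated embryos in channel 1. Pcna in replicate 5 was 1.16 and 1.53 in that orientation, against 0.82 and 0.82. A positive replicate value of Pcna or of Rrm2 probes 2161 and 3397 in replicates 1 and 3 therefore came from a large ratio in 1 orientation and a ratio near or below 0 in the other.

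**Figure D2:**
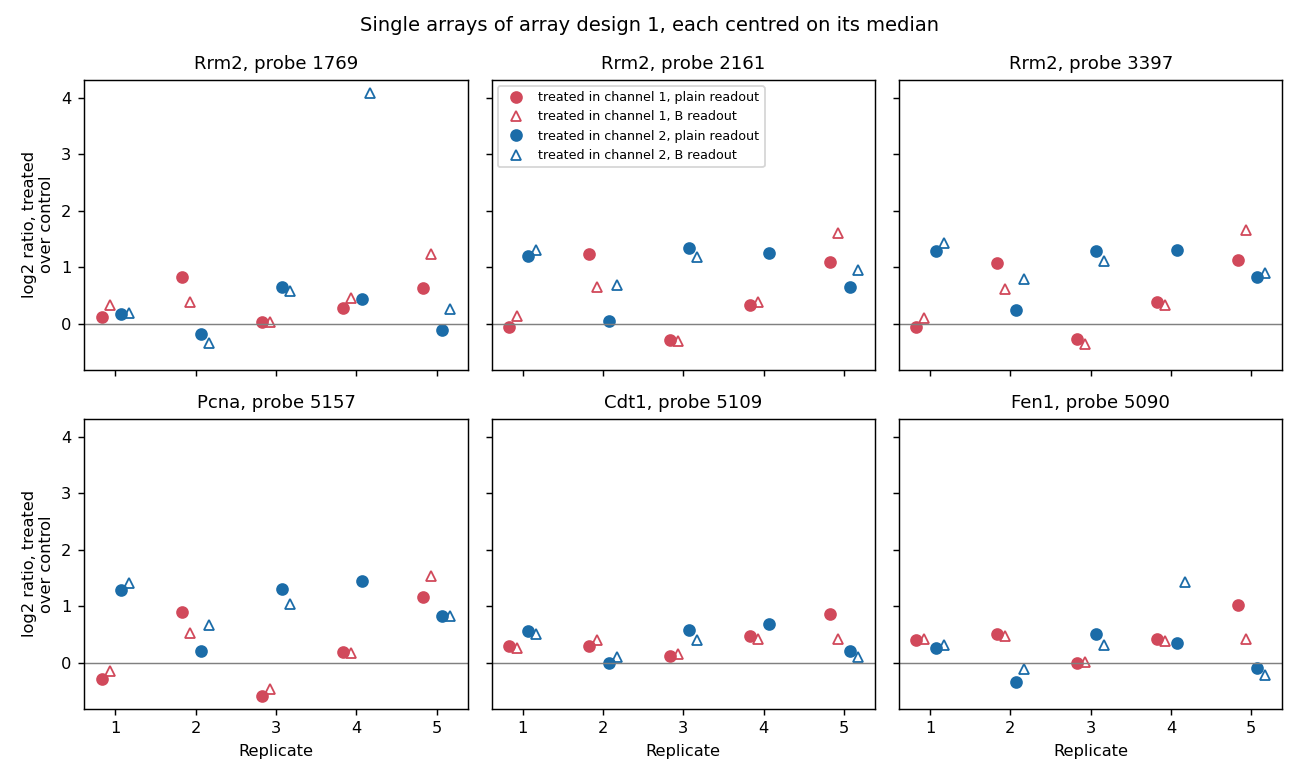
Log2 ratio of treated over control embryos on every single array of design 1 (y axis, array median at 0) against replicate (x axis), 1 panel for each probe. Red marks treated embryos in channel 1 and blue in channel 2, circles the plain and triangles the B readouts; the triangle at 4.08 for Rrm2 probe 1769 is the failing readout, and in replicates 1 and 3 red and blue separate for Rrm2 probes 2161 and 3397 and for Pcna.

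The mean of the unturned ratios of both orientations, the dye part, was not used to choose the genes and was tested. It is a separate average of the same arrays, and over replicates it moved only in part with the treatment ratio of Pcna. That ratio was lowest in replicate 3 (0.32, dye part -0.85) and highest in replicate 5 (1.08, dye part 0.26). Replicate 4 had 0.81 with a dye part of -0.63, and replicates 1 and 2 had 0.56 and 0.57 with dye parts of -0.79 and 0.14. For Pcna the dye part had these values. The mean dye part was -0.37 ± 0.53 for Pcna (limma adjusted p = 0.161), -0.29 ± 0.48 for Rrm2 probe 3397 (adjusted p = 0.214) and -0.25 ± 0.50 for Rrm2 probe 2161 (adjusted p = 0.293). It was -0.07 ± 0.58 for Rrm2 probe 1769 (adjusted p = 0.8), -0.01 ± 0.19 for Cdt1 (adjusted p = 0.971) and 0.08 ± 0.31 for Fen1 (adjusted p = 0.638). No probe of the 4 genes passed the limma test, beside 1243 of 7680 probes (16.2%) that did. The replicates did not share 1 sign of the dye part for any of the 6 probes.

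The slides belong to 2 series. On design 1 replicates 1 and 2 are of series s2000 and replicates 3 to 5 of s3000, and on design 2 replicates 1 to 3 are of s2000 and replicates 4 and 5 of s3000. Means in s2000 and s3000 on design 1 were 0.65 and 0.78 for Rrm2 probe 2161, 0.68 and 0.80 for Rrm2 probe 3397, 0.57 and 0.74 for Pcna, and 0.30 and 0.42 for Cdt1. Fen1 had 0.24 and 0.38, or 0.29 in s3000 without the failing readout, and Rrm2 probe 1769 had 0.19 and 0.71, or 0.41 without it. All 6 probes were above 0 in both series. The series difference had a limma adjusted p of 0.999 for each of the 6. Of all 7680 probes 0 (0%) passed this limma test, with 128 higher and 14 lower in s3000 at an unadjusted p under 0.05.

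Within each replicate, part of the spread of the treatment ratios over probes followed the dye profile of the probes. For each replicate the treatment ratios of all probes were fitted as a smooth surface over the leading 3 components of the dye part, and this surface took up 35.7% to 82.0% of their variance on design 1, the most in replicate 4. This fit was chosen with earlier results of these data known. With that trend removed, Rrm2 probes 3397 and 2161 kept means of 0.50 ± 0.09 and 0.48 ± 0.08 (SD, n = 5), at ranks 13 and 15. Pcna kept 0.36 ± 0.08 at rank 32 and Cdt1 0.26 ± 0.07 at rank 90. Rrm2 probe 1769 had 0.13 ± 0.12 and Fen1 0.12 ± 0.09, at ranks 399 and 420. All 6 stayed above 0 in 5 of 5 replicates. No array used here compared control with control, and the part of the dye profile in these ratios was not tested.

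The median probe itself lay below 0 before centring, by 0.10 to 0.38 on the log2 scale in the 5 replicates of design 1. Without centring, Rrm2 probe 3397 had 0.45, 0.40, 0.01, 0.36 and 0.97, and Rrm2 probe 2161 was likewise above 0 in 5 of 5 replicates. Pcna was above 0 in 4 of 5, Cdt1 and Fen1 in 3 of 5 and Rrm2 probe 1769 in 2 of 5. Uncentred means were 0.44 and 0.42 for Rrm2 probes 3397 and 2161, 0.36 for Pcna, 0.06 for Cdt1 and 0.08 for Fen1.

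**Figure D3:**
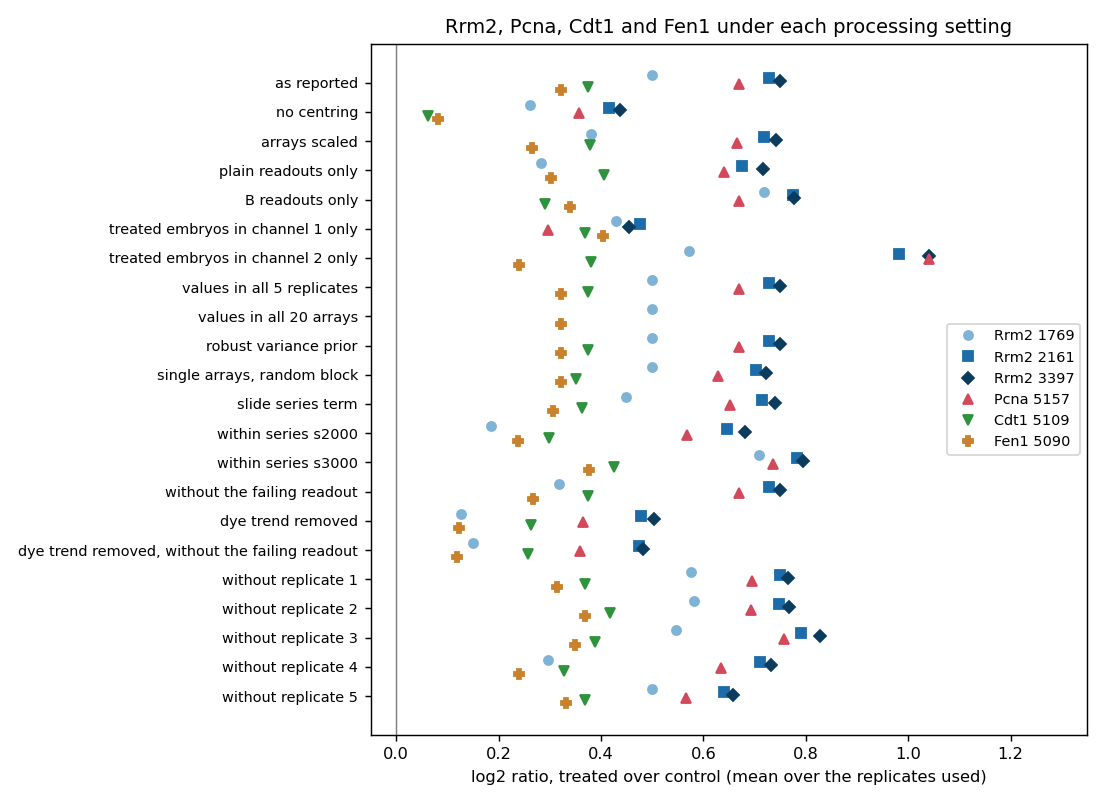
Mean log2 ratio of treated over control embryos (x axis) of the 6 probes under each processing setting (y axis), with 0 as the grey line. Rrm2 probes 2161 and 3397 and Pcna lie to the right of the other probes in most settings, Cdt1 and Fen1 come nearest to 0 without centring (0.06 and 0.08), and only Rrm2 probe 1769 and Fen1 have a value in all 20 arrays.

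Other genes of the same roles were taken from lists, not from how they moved. Nucleotide supply had 12 measured genes on design 1, the clamp loader and polymerases 14, licensing and helicase 13, and flap and excision 10. Of these 49 genes, on 64 probes, 0 were called higher and 0 lower on design 1 with all readouts, beside the 0.638% and 0.013% of all probes. At an unadjusted p under 0.05 limma had 20 probes higher and 5 lower, and the lowest adjusted p was 0.0505. How many of all probes passed that unadjusted cut is not given here, so these counts do not set the list apart. The median gene lay at 0.15 and 40 of 49 lay above 0, with the median of all probes at 0.00. With the dye trend removed the median gene lay at 0.01, 32 of 49 lay above 0, and 0 were called higher and 1 lower, beside 43 (0.56%) and 17 (0.221%) of all probes. The lower gene was Dbf4, the activator of the origin-firing kinase Cdc7, with 2 of its 4 probes called (-0.25 and -0.25), and it was named after its values had been seen. Without the failing readout 12 of the 49 genes were called higher and 1 lower, beside 10.2% and 5.77% of all probes, and the median gene lay at 0.09. This direction is relative to the median probe, since without centring 0 of the 49 genes were called higher and 16 lower, beside 19 (0.247%) and 4596 (59.8%) of all probes.

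Among the partners of Rrm2, Rrm1, the large subunit of ribonucleotide reductase, had 0.35, 0.29, 0.17, 0.50 and 0.61 in replicates 1 to 5. Its mean of 0.38 ± 0.17 (SD, n = 5) missed the threshold with all readouts (limma adjusted p = 0.0516) and passed without the failing one (0.0048), with the same mean. The adjusted p of 0.0516 was shared by probes with unadjusted limma p as far apart as 0.000578 (Pclaf) and 0.00493 (Rnaseh2b). It sets no single gene apart. Rrm2b, the p53-induced small subunit, was measured on design 2 by 2 probes at -0.09 ± 0.06 and 0.05 ± 0.13, and neither passed (limma adjusted p = 0.204 and 0.543). Both Rrm2b probes were named after their values had been seen. Dctd, the deoxycytidylate deaminase, and Umps, of pyrimidine synthesis, were called without the failing readout (0.31 ± 0.13 and 0.22 ± 0.14), while the other Umps probe, at 0.17, was not (limma adjusted p = 0.0674).

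Around Pcna, Rfc3, a subunit of the clamp loader, had 0.35 ± 0.12 with all readouts (limma adjusted p = 0.0505) and 0.30 ± 0.11 without the failing one (0.00872). Pclaf, which encodes a PCNA-binding protein, had 0.45 ± 0.22 and 0.39 ± 0.22 on its 2 probes and was called without the failing readout on both (limma adjusted p = 0.0033 and 0.0062). Prim2, a primase subunit, was the 1 gene called lower without that readout (-0.24 ± 0.14). Around Cdt1, Mcmbp, an MCM-binding protein, had 0.48 ± 0.31 (limma adjusted p = 0.0516, and 0.00633 without the failing readout), but 0.04 with the dye trend removed. The design 2 probe of Mcmbp lay at -0.01 ± 0.12 (limma adjusted p = 0.871). Cdc6, which loads the helicase together with Cdt1, had 0.22 ± 0.06 and Mcm3, a helicase subunit, 0.30 ± 0.17 without it, and both were then called. The design 2 probe of Mcm3 lay at 0.07 ± 0.10 and did not pass (limma adjusted p = 0.322). Gmnn, which encodes the Cdt1 inhibitor geminin, lay at 0.11 ± 0.11 on design 2 (limma adjusted p = 0.14, not past the threshold). Around Fen1, 0 of 10 genes were called in either form of the design 1 fit. Lig1, the ligase that seals the nicks left by Fen1, lay at 0.03 ± 0.13, and Rnaseh2b, an RNase H2 subunit, at -0.19 ± 0.05 (limma adjusted p = 0.0516).

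Design 2 holds none of the 4 genes but other genes of the same roles. There limma called 1501 of 7599 probes (19.8%) higher and 613 (8.07%) lower. Of 33 measured genes of the 4 roles, 16 had a probe called higher and 1 lower, which is 17 and 1 of 38 probes (44.7% and 2.63%). The median gene lay at 0.12, against 0.02 for all probes. With the sign turned, since the direction is less settled on this design, 16 genes would be lower and 1 higher, beside 19.8% lower and 8.07% higher. With the dye trend removed, 4 of the 33 were called higher and 0 lower, beside 239 (3.15%) and 143 (1.88%) of all probes. Without replicate 1, 9 of the 33 were called higher and 0 lower, beside 888 and 125 of all probes. Without centring 0 were called higher and 23 lower, beside 21 (0.276%) and 6634 (87.3%) of all probes.

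By role, in the channel 1 over channel 2 reading, 3 of 6 nucleotide supply genes rose on design 2, beside 19.8% of all probes called higher. With the sign turned, each rise on that design is a fall of the same log2 size. The nucleotide supply genes were Mthfd1, a folate enzyme (0.45 ± 0.22, limma adjusted p = 2.77e-05), Paics, of purine synthesis (0.30 ± 0.15) and Dtymk, the thymidylate kinase (0.20 ± 0.13), whose other probe had 0.04 ± 0.21 and did not pass. Of 11 genes of the clamp loader and polymerases 6 rose, led by Rfc1, the large clamp loader subunit (0.51 ± 0.10, limma adjusted p = 6.46e-07), Prim1, a primase subunit (0.36 ± 0.11), Tipin, which protects stalled forks (0.33 ± 0.16), Rpa2, which binds single-stranded DNA (0.30 ± 0.22) and Rfc2 (0.24 ± 0.09). The called Rfc1 probe had -0.02 with treated embryos in channel 1 only and 1.04 in channel 2 only, so its value came from 1 orientation. The other Rfc1 probe had 0.17 ± 0.23 and the design 1 probe of Rpa2 0.23 ± 0.36, and neither passed. Of 11 licensing and helicase genes 6 rose, among them Mcm6 (0.34 ± 0.12), Mcm2 (0.25 ± 0.12), Mcm7 (0.22 ± 0.15) and Orc6 (0.22 ± 0.13). Dtl, part of the ligase that degrades Cdt1, had 0.17 ± 0.13 on 1 probe, which passed (limma adjusted p = 0.0311), and 0.06 ± 0.16 on the other, which did not. Of 5 flap and excision genes Parp1, a sensor of DNA breaks, rose (0.16 ± 0.11) and Ung, the uracil glycosylase, fell (-0.16 ± 0.13). Mthfd1, Rfc1, Prim1 and Tipin were the 4 genes still called with the dye trend removed.

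E2F factors and G1 to S regulators had 9 measured genes on design 1, of which 0 were called, beside 0.638% and 0.013% of all probes. At an unadjusted p under 0.05 limma had 2 of their probes higher and 1 lower, and the share of all probes at that cut is not given here. Without the failing readout 2 genes were called higher and 0 lower, beside 10.2% and 5.77% of all probes. Ccnd3, a D-type cyclin, then had 0.22 ± 0.10. Cdc25a was called through probe 6266 (0.31), while its other probes had -0.18, 0.06 and 0.02 and did not pass. On design 2, 8 of 13 were called higher and 1 lower, beside 19.8% and 8.07% of all probes, or 1 higher and 8 lower with the sign turned. Tfdp1, the partner that E2F factors need to bind DNA, had 0.34 ± 0.11, E2f6, a repressive member of the family, 0.31 ± 0.09, Cdkn1c, an inhibitor of cyclin-dependent kinases, 0.37 ± 0.20, the D-type cyclin Ccnd2 0.27 ± 0.18 and Cdk4 0.19 ± 0.09, while Cdk6 had -0.17 ± 0.13. The Ccnd2 and Cdk4 values are those of their largest probes. Of 5 Ccnd2 probes on the design 3 passed and 2 did not (0.17 and 0.13), and the other Cdk4 probe had 0.10 ± 0.13 and did not pass (limma adjusted p = 0.186). With the dye trend removed E2f6 was the 1 gene of 13 still called higher, and 0 were called lower, beside 3.15% and 1.88% of all probes. Genes of G2 and mitosis had a median of -0.01 over 20 genes of design 1 and of -0.04 over 14 genes of design 2, where 3 were called higher and 5 lower, beside 19.8% and 8.07% of all probes, or 5 higher and 3 lower with the sign turned.

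**Figure D4:**
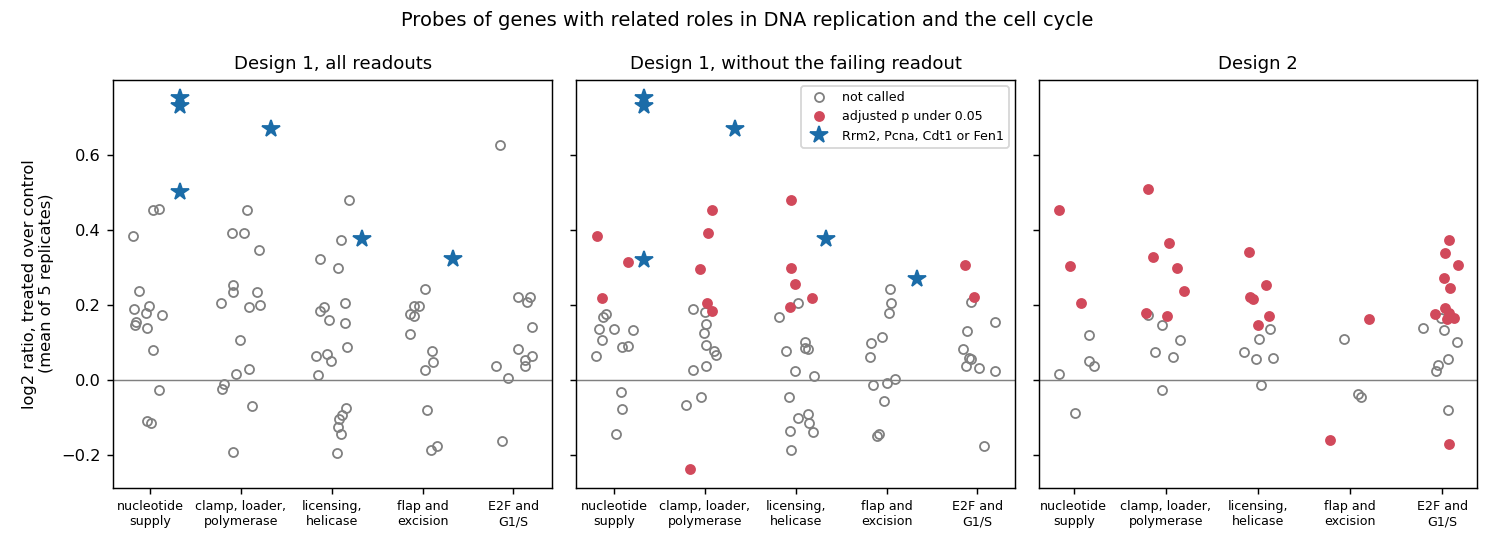
Mean log2 ratio of treated over control embryos over 5 replicates (y axis) of single probes of genes listed by role (x axis); open circles did not pass an adjusted p of 0.05, red circles did, and stars are the probes of Rrm2, Pcna, Cdt1 and Fen1, drawn without their calls. Left, design 1 with all readouts, where 0 list probes passed; middle, design 1 without the failing readout; right, design 2, where 17 of the 38 probes of the first 4 roles were called higher and 1 lower.

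Other cell types were followed by marker genes. Of 4 measured yolk sac endoderm markers on design 1, 0 passed, with a median gene at -0.09 and a range from -0.17 to -0.06. Of 2 erythroid markers there 0 passed (-0.06 and -0.02). On design 2, 3 of 5 erythroid markers were called higher and 0 lower, beside 19.8% and 8.07% of all probes, with a median of 0.39 and a range from -0.0018 to 0.61. With the dye trend removed 2 of 5 were called higher, beside 3.15% of all probes, and with the sign turned these markers would be lower. Their part in the replication genes called on that design was not tested. Of 8 measured p53 targets on design 1, 4 were called higher, beside 0.638% of all probes, with a median of 0.77. With the dye trend removed the median was 0.57. Ccng1, from which the direction was read, is among the called genes, so its sign was set in advance. On design 2, 4 of 7 were called higher, beside 19.8% of all probes, with a median of 0.24. With the dye trend removed 3 were called higher there, beside 3.15%, with a median of 0.01. With the sign turned they would be lower.

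The probes most like each of the 6 in their 5 replicate values were found among the other probes of design 1 with 1 gene symbol. For both larger Rrm2 probes the nearest other gene was Pcna, with root mean square differences of 0.09 and 0.09 on the log2 scale, followed by the p53 target Rps27l (0.16 and 0.17) and the imprinted RNA H19 (0.16 and 0.18). For Pcna the nearest were Rrm2 probes 2161 and 3397, and then Anapc7, a subunit of the anaphase-promoting complex (0.12). Cdt1 lay nearest to Rfc3 (0.06), Micos10 (0.06) and Kdm2b (0.06). Fen1 lay nearest to Atxn10 (0.04), Llph (0.07) and Ociad1 (0.07), and Rrm2 probe 1769 to Aebp2, Dnaja1 and Ubxn4 (0.08 to 0.09). Fen1 and Rrm2 probe 1769 are the probes with a value in the failing readout, which enters these distances.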

How the data were processed

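The deposited values are log2 ratios of 1 channel over the other of each 2-channel array, per the labels' channels, with base 2 inferred. The sources used here give no log base, numerator, scanner, background correction or normalization, and no meaning of the B mark in the titles. Probes were named through the platform annotation: 4749 of design 1 had 1 symbol, 227 several and 2704 none, and 4935, 275 and 2470 of design 2. Depth has no counterpart here, so the number of arrays limits the precision.

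Each array was centred on its median, arrays with control in channel 1 were turned, readouts of a slide were averaged, and both orientations were averaged into 1 value per replicate. Probes with at least 3 replicates were tested against 0, two-sided, within each design by limma 3.58.1 (R 4.3.3; functions lmFit and eBayes) with Benjamini-Hochberg adjustment over all 7680 or 7599 probes (spots of 1 accession on design 2 were averaged), with a threshold of 0.05. The dye trend was removed with mgcv 1.9.3 (bases of 40 and 8). The fits were tested on simulated data.

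Named are the 4 genes, for each role list and design up to 5 called genes with the largest change in each direction or the 1 with the smallest p, Ccng1, and the 3 probes nearest to each probe. Rrm2b, Gmnn, Lig1, Dbf4, second probes of named genes, and the genes called without the failing readout were chosen after their values had been seen. The genes and lists were chosen with earlier results of these data known.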

Additional observations from a re-analysis of the deposited data

Results flagged for a closer look

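Of 32 probes described, 3 had 1 replicate far from the other 4, by the ratio of its gap to the range. Chance alone marks about 1 in 20 such sets. Rrm2 probe 1769 had 1.31 in replicate 4 of array design 1, against 0.17 to 0.50 in the other replicates. Rnaseh2b had -0.0916 in replicate 1 of design 1, against -0.22 to -0.19. Cdk4 had 0.336 in replicate 1 of design 2, against 0.12 to 0.18.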

How the results depend on the processing

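The count of called probes depended on many settings, and the counts are given for design 1 (50 as reported) and design 2 (2114). They were 4615 (19 higher, 4596 lower) and 6655 (21 higher, 6634 lower) without centring, 345 and 1331 with arrays scaled, 501 and 1076 with plain readouts only, and 2324 and 1190 with treated embryos in channel 1 only. With treated embryos in channel 2 only they were 1108 (318 higher, 790 lower) and 117, and within slide series s3000 3 and 811. On design 1 they were 3 with B readouts only, 869 for single arrays with a random block for the replicate, 12 with a slide series term, 1224 without the failing readout and 118 with that readout left out and the dye trend removed. Limma called 0 of 6894 probes with values in all 20 arrays (628 higher and 1390 lower at an unadjusted p under 0.05). With the dye trend removed, 382 were called on design 2. Leaving out each replicate gave 7 to 82 probes on design 1 (8, 12, 7, 82 and 9 without replicates 1 to 5) and 1013 to 2637 on design 2 (1013 without replicate 1).

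Of the genes of replication on design 1 (0 as reported), 16 were called lower and 0 higher without centring, 4 with arrays scaled, 7 with plain readouts only, 13 and 5 with treated embryos in channel 1 or channel 2 only, 10 for single arrays, 1 within s2000, 13 without the failing readout, 1 with the dye trend removed and 3 with both. On design 2 they were 16 and 1 as reported (1501 and 613), 0 and 23 without centring (21 and 6634) and 9 and 0 with plain readouts only (972 and 104). With treated embryos in channel 1 only they were 6 and 0 (709 and 481), and in channel 2 only 1 and 0 (106 and 11). With the dye trend removed they were 4 and 0 (239 and 143). Leaving out a replicate gave 9 to 18 called genes, with 9 and 0 without replicate 1 (888 and 125). The dye part called 0 probes on design 2 (812 higher and 619 lower at an unadjusted p under 0.05 in limma), 438 with B readouts only and 0 to 1024 when a replicate was left out, and on design 1 803 to 1115. The series difference called 1 probe on design 1 without the failing readout, 0 to 1 when a replicate was left out, and 0 to 48 on design 2.

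Log2 ratios moved by more than 1 SD without centring to 0.415 and 0.437 (Rrm2 probes 2161 and 3397), 0.356 (Pcna), 0.0613 (Cdt1) and 0.0817 (Fen1). With treated embryos in channel 1 only they were 0.476, 0.455 and 0.296 for Rrm2 2161, Rrm2 3397 and Pcna, and in channel 2 only 0.981, 1.04 and 1.04. With the dye trend removed they were 0.479 (Rrm2 2161), 0.365 (Pcna) and 0.123 (Fen1), and with the failing readout also left out 0.475, 0.482 (Rrm2 3397), 0.359 and 0.118. No setting turned the sign of the mean of any of the 6 probes, but the genes were chosen for high ratios on these same arrays. Of the other named genes, values below 0 without centring on design 2 were Paics -0.128, Dtymk -0.225, Prim1 -0.0659, Tipin -0.103, Rpa2 -0.131, Rfc2 -0.194, Mcm6 -0.0881, Mcm2 -0.177, Mcm7 -0.209, Orc6 -0.214, Dtl -0.26, Parp1 -0.268, Cdkn1c -0.0571, Tfdp1 -0.0905, E2f6 -0.123, Ccnd2 -0.159 and Cdk4 -0.24, and on design 1 Ccnd3 -0.0939. With 1 orientation only the sign turned for Rfc1 (-0.0186) and Mcmbp (-0.146) in channel 1, and for Rpa2 (-0.000914), Dtl (-0.0593), Rnaseh2b (0.118) and Parp1 (-0.101) in channel 2. Their other values under the alternatives kept their direction, 93 lost a call and 17 gained one. The causes were not tested.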
